A study of Homo sapiens with 12 samples.

Results

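Paraspeckle protein genes are the genes for proteins found in paraspeckles, the nuclear bodies built on the long non-coding RNA NEAT1. Rows were taken by gene symbol from a list of 35 such proteins, and each symbol matched 1 of the 55771 rows of the deposited table. All 35 also passed the filter on low values that left 20454 genes for testing. The lowest single value of a member was 36.74, for BCL11A, and the highest was 70481, for HNRNPA1. Total RNA came from KELLY, an established human neuroblastoma line with amplified MYCN. Cells were first plated for 24 h in medium with 10% serum. In medium with 4% serum they were then given 50 nM of a control, BPS1 or BPS2 oligonucleotide for 48 h. There were 4 libraries in each of the 3 groups. All 3 oligonucleotides were morpholinos (antisense molecules without charge) held on a DNA leash and delivered in a lipoplex, so the control cells also received a morpholino, a leash and lipid. The labels give neither the oligonucleotide sequences nor an untreated group, and all libraries come from 1 cell line. The series text asks which transcripts change when NEAT1_2, the long NEAT1 transcript, and paraspeckles are raised.

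A paraspeckle forms while NEAT1_2 is being transcribed. NONO, SFPQ and PSPC1 are the DBHS proteins, which dimerise with each other and coat the RNA, and RBM14, HNRNPK, DAZAP1, HNRNPH3 and SMARCA4 are among the other proteins needed for the body to assemble. The short transcript NEAT1_1 ends at an early polyadenylation signal, and the cleavage factor CFIm (NUDT21 with CPSF6 or CPSF7), which binds UGUA, favours that end. HNRNPK is known to hinder CFIm there, so that transcription runs on into NEAT1_2. Most of these proteins also work outside paraspeckles, in splicing, transcription or RNA transport. The values here are RNA levels, and neither protein nor paraspeckles were measured in these files.

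The end of NEAT1_1 is shown because the CFIm members act there. On GRCh38 with GENCODE release 29 the stretch is chr11:65426383-65426528, plus strand, inside the long transcript. It holds 3 copies of TGTA, the DNA form of the CFIm motif, between 42 and 110 bases upstream of the polyadenylation signal AATAAA. Capitals mark these motifs.
NEAT1 around the end of the short transcript: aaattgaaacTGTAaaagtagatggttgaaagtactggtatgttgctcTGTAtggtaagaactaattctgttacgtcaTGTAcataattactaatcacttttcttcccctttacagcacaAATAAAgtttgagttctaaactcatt

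Values are the authors' normalized counts. A log2 fold change is on the log2(value + 1) scale and is given with the standard error of a limma fit to all 12 libraries. The test is two-sided, and "passed" or "called" means a p under 0.05 after Benjamini-Hochberg adjustment over all genes tested. Nothing in the labels ties the libraries to separate cultures, and a p-value therefore reflects only library-to-library spread, which may be technical. Fewer cells that express a gene and less RNA per cell cannot be told apart in bulk RNA.

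Library totals were 29.57 to 33.26 M normalized counts, which divided by the value of 1 read gave 29.09 to 31.79 M, against a stated mean of 25 M reads. Control replicate 1 and BPS1 replicate 4 stood apart: over genes, the SD of their departure from each gene's median was 0.471 and 0.594, against 0.377 to 0.425 in the other 10. All 9 adrenergic neuroblastoma markers averaged above 100 in every group, and all 5 immune markers averaged below 10. Of 6 fibroblast or mesenchymal markers, 5 averaged above 100 in every group. TWIST1 was the highest of them in control (1857) and FN1 in BPS1 (2241) and BPS2 (1864). The highest epithelial marker, KRT19, averaged 145.4 to 161.4 by group, and the highest endothelial one, VWF, 93.15 to 149.6. Summed adrenergic markers ranged from 150200 to 169800 in control, 125000 to 153400 in BPS1 and 144300 to 153500 in BPS2. Of these 9 markers, 4 fell and 1 rose in BPS1, and 1 fell in BPS2 (limma adjusted p under 0.05). Of the 6 fibroblast or mesenchymal markers, 1 rose in BPS1 (FN1, 0.54 ± 0.13) and 1 in BPS2 (COL1A1, 0.46 ± 0.07). Of 13 mitochondrially encoded genes, 6 fell in BPS1 and 2 in BPS2, and of 13 tested nuclear long non-coding RNAs, 5 fell in BPS1 and 0 in BPS2 (2 by unadjusted p under 0.05, limma). Of all genes tested, 4.32% fell in BPS1 and 0.386% in BPS2, and 4.29% and 0.821% rose. The part of these shifts in the results below was not tested.

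NEAT1 itself fell with both oligonucleotides. It held 6926, 7021, 7074 and 6494 in control, 2380, 2150.1, 2150.0 and 1414 in BPS1, and 4853, 4198, 3912 and 4083 in BPS2. No group overlapped another, and BPS1 was lowest. BPS1 gave a log2 fold change of −1.79 ± 0.13 (limma adjusted p = 6.00e-06) and BPS2 one of −0.69 ± 0.13 (adjusted p = 0.0239), and each contrast had an exact two-sided permutation p of 0.0286, the smallest that 4 against 4 allows. The BPS2 call was lost when any control library or BPS2 replicate 2, 3 or 4 was left out (adjusted p of 0.0510 to 0.0899). A single row stands for the gene, so NEAT1_1 and NEAT1_2 are not separated.

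Of the 35 protein genes, as of all genes tested, most did not pass in any contrast. In BPS1 against control, 3 rose (PSPC1, HNRNPH3 and BCL11A) and 2 fell (TARDBP and RBM3), so 5 of 35 passed, and 8.6% of all genes tested passed the same test (4.29% upward and 4.32% downward). In BPS2 against control 1 of 35 fell, HNRNPA1, and 1.21% of all genes passed (0.821% upward and 0.386% downward). In BPS2 against BPS1, 1 rose (RBM3) and 2 fell (HNRNPH3 and BCL11A), and 3.93% of all genes passed (2.3% upward and 1.63% downward). The median log2 fold change of the 35 was 0.01, −0.03 and −0.06 in these contrasts, and that of all genes tested was −0.0004, 0.0025 and −0.0026. The 95% interval lay within a 1.25-fold change either way for 21, 26 and 22 members, and within 1.5-fold for 30, 32 and 32. The share of all genes within these limits is not given here, so these counts are not a result about the members. Summed, the members made up 1.07% ± 0.0354 of the library total in control, against 1.07% ± 0.0437 for BPS1 and 1.03% ± 0.0155 for BPS2 (SD, n = 4).

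**Figure D1:**
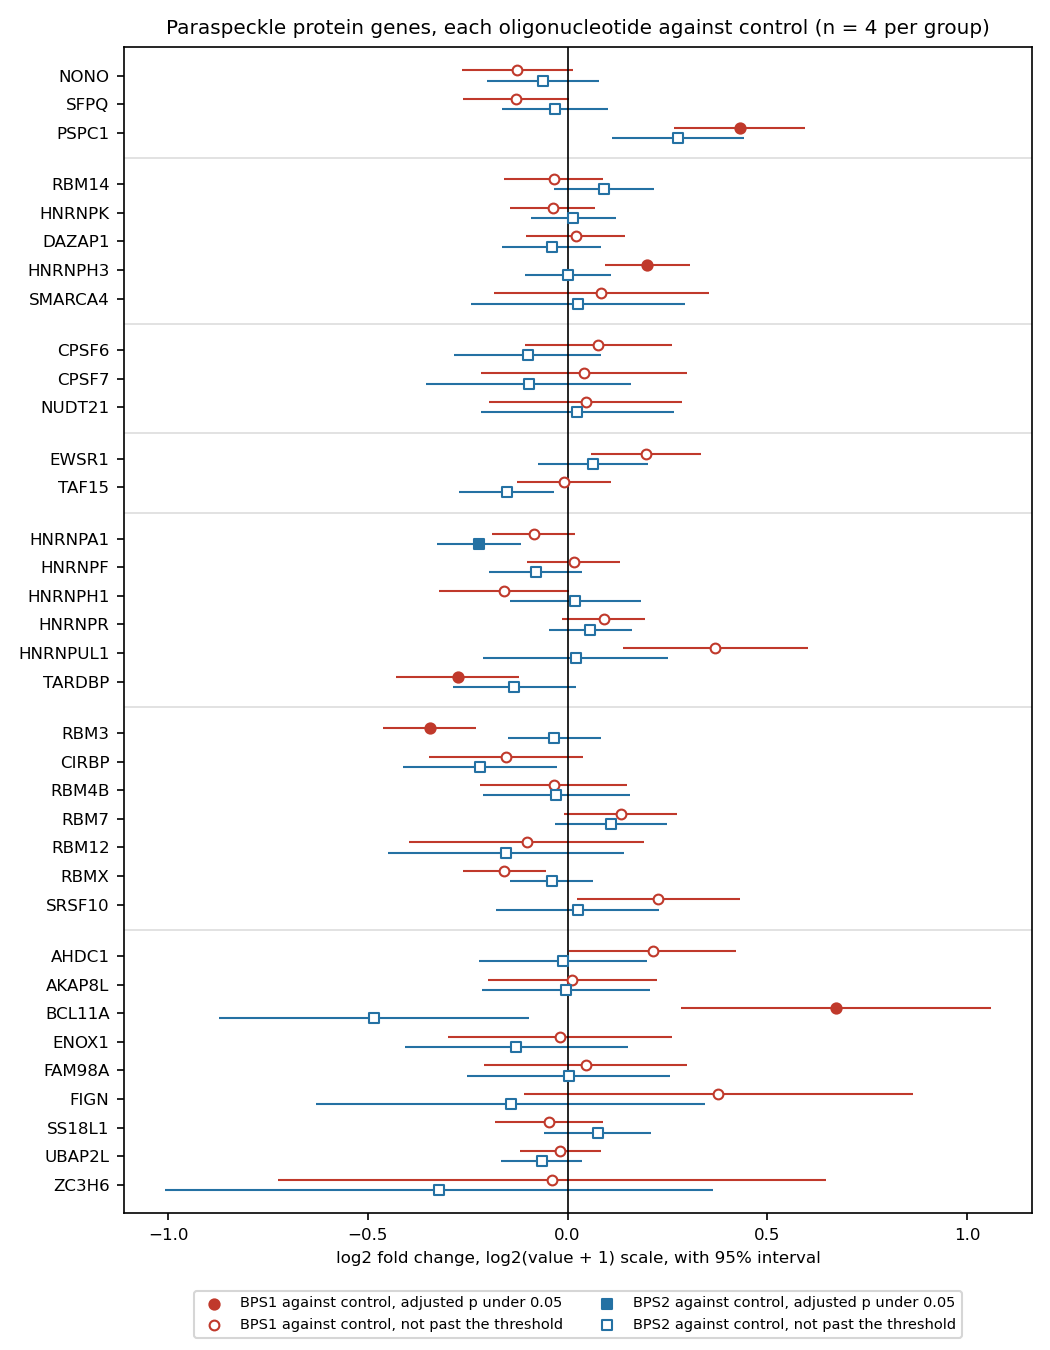
Log2 fold change of the 35 genes (rows, grouped by role) in BPS1 and BPS2 against control, each with its 95% interval from the fit to 12 libraries and 4 libraries per group. Filled symbols passed at an adjusted p under 0.05: 5 in BPS1 and 1 in BPS2. PSPC1 lies right of 0 in both, BCL11A lies on opposite sides, and the interval of ZC3H6 is the widest.

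Because both comparisons with control share the same 4 control libraries, their values are set side by side here and are not independent of each other. Groups did not overlap for 8 members in BPS1 against control (5 higher and 3 lower), where 14.3% of all genes tested did not overlap (7.5% higher and 6.81% lower). The count was also 8 in BPS2 against control (2 higher and 6 lower), with 9.65% of all genes (5.41% higher and 4.23% lower), and 11 in BPS2 against BPS1 (5 higher and 6 lower), with 11.9% of all genes (6.08% higher and 5.8% lower).

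The number of calls depended on the libraries that stood apart. Both were picked out from these same values, so p-values without them may be too small. Without BPS1 replicate 4, 11 members passed in BPS1 against control (11.6% of all genes), 2 in BPS2 against control (2.62%) and 6 in BPS2 against BPS1 (8.62%). With control replicate 1 omitted as well, 10, 4 and 13 passed, and 13.6%, 9.34% and 17.1% of all genes. Of the 5 calls in BPS1 against control, 4 were among the 10, and BCL11A was not (adjusted p = 0.0630). The other 6 were NONO, SFPQ, HNRNPA1, HNRNPUL1, RBMX and SRSF10. Leaving out any other single library gave 2 to 5 members in BPS1 against control, where 1102 to 1601 of all 20454 genes passed.

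Among the DBHS genes, PSPC1 rose in BPS1 while NONO and SFPQ, the more abundant partners, did not pass. PSPC1 (ENSG00000121390, chromosome 13, 19674752 to 19783019, minus strand) held 3237, 2989, 2889.6 and 2933 in control, 3771, 4071, 3754 and 4702 in BPS1, and 3749, 3627, 3569.6 and 3644 in BPS2. Every treated library lay above every control library, and every BPS1 library lay above every BPS2 library. BPS1 gave a log2 fold change of 0.43 ± 0.08 (limma adjusted p = 0.00375, 1.35-fold) and BPS2 one of 0.28 ± 0.08 (adjusted p = 0.127). PSPC1 in BPS1 passed in all 23 alternative analyses, with adjusted p from 2.70e-04 to 0.0310. In BPS2 it passed in 3 of 23 alternatives and not in the other 20, where adjusted p went up to 0.313. It passed without BPS1 replicate 4 (adjusted p = 0.0154) at the same log2 fold change, and with control replicate 1 omitted as well (0.00197). The other was a fit of control and BPS2 alone (adjusted p = 0.0438). BPS2 against BPS1 gave −0.15 ± 0.08 (adjusted p = 0.332, 95% interval −0.32 to 0.01).

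NONO (ENSG00000147140, chromosome X, 71283192 to 71301168, plus strand) held 22878, 24210, 22627 and 22741 in control, 20288, 20207, 20113 and 24421 in BPS1, and 22091, 22252, 21965 and 22263 in BPS2. SFPQ (ENSG00000116560, chromosome 1, 35176378 to 35193148, minus strand) held 25959, 24413, 23689 and 23934 in control, 21744, 21073, 21733 and 25189 in BPS1, and 24229, 23767, 23464 and 24432 in BPS2. For both genes BPS1 replicates 1, 2 and 3 lay below every control library, and BPS1 replicate 4 lay above at least 3 of the controls. Log2 fold changes in BPS1 were −0.13 ± 0.06 for NONO (limma adjusted p = 0.279) and −0.13 ± 0.06 for SFPQ (adjusted p = 0.235). Without BPS1 replicate 4, the highest BPS1 library for both genes, they were −0.19 for both (adjusted p = 0.00710 and 0.0154). In BPS2 they were −0.06 ± 0.06 (adjusted p = 0.795) and −0.03 ± 0.06 (adjusted p = 0.903).

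The ratio between DBHS genes within a library does not depend on a library's overall scale factor. PSPC1 per 100 NONO was 13.0 ± 0.776 in control (12.3 to 14.1), 19.2 ± 0.721 in BPS1 (18.6 to 20.1) and 16.5 ± 0.335 in BPS2 (16.3 to 17.0; SD, n = 4). The 3 ranges did not overlap, BPS1 replicate 4 included at 19.3. SFPQ per 100 NONO was 106 ± 5.31, 106 ± 2.33 and 108 ± 1.67, with overlapping ranges. Ratios were chosen after the values were seen and are given as a description. PSPC1 made up 5.95% of the summed DBHS counts in control, 8.52% in BPS1 and 7.33% in BPS2. Per kilobase of mean transcript length, control levels were 20600 ± 855 for SFPQ, 16800 ± 537 for NONO and 2040 ± 105 for PSPC1 (SD, n = 4). Per kilobase of the longest transcript NONO came first, at 7190 against 6540 for SFPQ, and PSPC1 was again the lowest of the 3, at 1250.

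**Figure D2:**
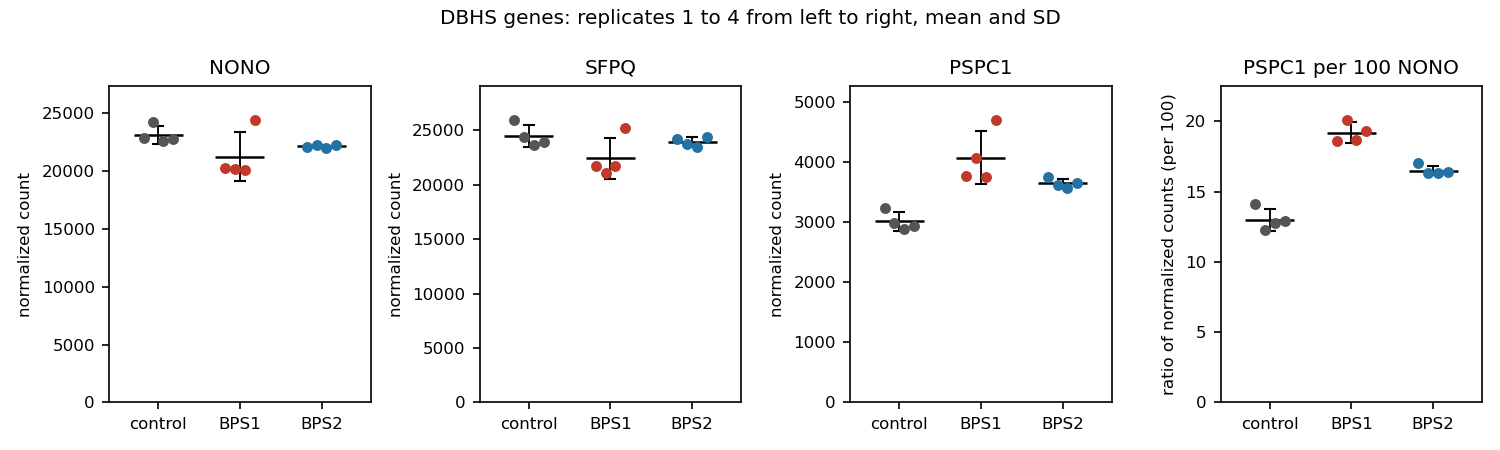
Normalized counts of NONO, SFPQ and PSPC1 and the ratio of PSPC1 to NONO (per 100) in each library, with the mean and SD of each group (n = 4). BPS1 replicate 4 is the high point in BPS1 for NONO (24421), SFPQ (25189) and PSPC1 (4702), while in the ratio it lies at 19.3, among the other BPS1 libraries (18.6 to 20.1).

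Of the 5 other proteins needed for assembly, only HNRNPH3 passed, and HNRNPK, RBM14, DAZAP1 and SMARCA4 did not pass in any of the 3 contrasts. HNRNPH3, an hnRNP H/F family protein that binds G-rich RNA (ENSG00000096746, chromosome 10, 68331174 to 68343191, plus strand), held 7726, 8075, 7751 and 7638 in control, 8979, 8887, 9149.6 and 8796 in BPS1, and 8106, 7597, 7790.4 and 7721 in BPS2. All 4 BPS1 libraries lay above the other 8, and control and BPS2 overlapped. BPS1 gave a log2 fold change of 0.20 ± 0.05 (limma adjusted p = 0.0250, 1.15-fold), BPS2 one of 0.00 ± 0.05 (adjusted p = 0.997), and BPS2 against BPS1 one of −0.20 ± 0.05 (adjusted p = 0.0412). The rise in BPS1 was no longer called without control replicate 3 or 4 (adjusted p = 0.0680 and 0.0649) or without BPS1 replicate 1, 2 or 3 (0.0533, 0.0567 and 0.0761), at a log2 fold change of 0.19 to 0.20. It was also lost with a replicate block (adjusted p = 0.0891), in a fit of control and BPS1 alone (0.111) and without the filter (0.120). GC correction with the block lost it too (0.0774), so it failed in 9 of 23 alternatives. The difference from BPS2 was called without control replicate 1 or BPS1 replicate 4, and lost without any other single library (adjusted p of 0.0559 to 0.134). That difference was called in 7 of 23 alternatives.

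HNRNPK, the protein that hinders CFIm on NEAT1, held 18243, 18974, 19080 and 18663 in control, 17737, 18795, 17800 and 18748 in BPS1, and 19557, 18525, 18206 and 19462 in BPS2. RBM14, a coactivator with a prion-like domain, held 5263, 4916, 4688.5 and 4779.8 in control, 4746, 4788, 4722 and 4904.5 in BPS1, and 5049, 5064, 5412 and 5397 in BPS2. DAZAP1, an RNA-binding splicing regulator, held 6007, 5577, 5368 and 5436 in control, 5467, 5531, 5847 and 5844 in BPS1, and 5639, 5377, 5455 and 5303 in BPS2. In these 3 genes both treated groups overlapped control, and only RBM14 had groups apart in any contrast, with every BPS2 library above every BPS1 library (log2 0.13 ± 0.06, adjusted p = 0.283). The 95% intervals of HNRNPK were −0.14 to 0.07 in BPS1 and −0.09 to 0.12 in BPS2 on the log2 scale. SMARCA4, the BRG1 ATPase of the SWI/SNF chromatin remodelling complex, held 3549, 2968, 2660.1 and 2698.5 in control, 2847.5, 2842, 2929 and 4032 in BPS1, and 2807.5, 2931.5, 3389 and 2921 in BPS2. Its highest values in control and BPS1 came from the 2 libraries that stood apart, and the log2 fold changes were 0.08 ± 0.12 and 0.03 ± 0.12.

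The 3 CFIm genes did not pass in any contrast (limma; 0 of 3 in each, and 0 of 3 by unadjusted p under 0.05). CPSF6 held 5741, 6752, 6402 and 5832 in control, 6829, 5910.2, 6675 and 6649 in BPS1, and 5609.7, 6431, 6035 and 5036 in BPS2. CPSF7 held 4761, 6179, 5727.5 and 6411 in control, 6413, 6733, 6058 and 4638 in BPS1, and 5764, 4912, 5411 and 5383 in BPS2. NUDT21, the subunit that recognises UGUA, held 4968.5, 6605, 6310.3 and 6691 in control, 7102, 6546, 6471 and 5222 in BPS1, and 6755, 5930.3, 5728 and 6469 in BPS2. Groups overlapped in all 3 genes, and for CPSF7 and NUDT21 the lowest of the 12 values for each gene were in control replicate 1 and BPS1 replicate 4. Log2 fold changes ranged from 0.04 to 0.08 in BPS1 and from −0.10 to 0.02 in BPS2. Intervals were wider here than for HNRNPK, for example −0.22 to 0.30 for CPSF7 in BPS1. With both libraries that stood apart omitted, CPSF7 was lower in BPS2 than in BPS1 (−0.26 on the log2 scale, adjusted p = 0.0152).

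EWSR1 and TAF15 are FET proteins, which bind RNA and carry prion-like domains. EWSR1 held 17460, 17622, 17717 and 17891 in control, 18855, 19471, 20324 and 22555 in BPS1, and 17513, 19988, 18084 and 18325 in BPS2. BPS1 lay above control without overlap, but the gene did not pass (0.20 ± 0.06, limma adjusted p = 0.0778). TAF15 did not overlap between BPS2 (4452 to 4573) and control (4908 to 5172), with a log2 fold change of −0.15 ± 0.05 (adjusted p = 0.278). TAF15 shares its annotated locus and strand with AP2B1, whose row averaged 11000 against 4846 for TAF15, and with RASL10B (1650), so their reads may not be fully separated.

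Within the 6 genes of hnRNPs and TARDBP, TARDBP fell in BPS1 and HNRNPA1 fell in BPS2. TARDBP encodes TDP-43, which represses cryptic exons and binds NEAT1 (ENSG00000120948, chromosome 1, 11012344 to 11026420, plus strand). It held 11335, 10429, 10702 and 10137 in control, 9647, 7752, 8724 and 9166 in BPS1, and 10165, 9960, 9410.1 and 9301 in BPS2. BPS1 lay below control without overlap, and BPS2 overlapped both. BPS1 gave a log2 fold change of −0.28 ± 0.07 (limma adjusted p = 0.0311, 0.826-fold) and BPS2 one of −0.13 ± 0.07 (adjusted p = 0.522). The BPS1 call was lost without control replicate 1, 2 or 3 (adjusted p = 0.0673, 0.0663 and 0.0763) and without BPS1 replicate 2 or 3 (0.0838 and 0.0765). A correction for transcript GC content lost it as well (0.0829), also with a replicate block (0.126), as did the block alone (0.0567). It failed in a fit of control and BPS1 alone (0.104) and without the filter (0.0836), so in 10 of 23 alternatives.

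HNRNPA1, an abundant splicing repressor (ENSG00000135486, chromosome 12, 54280193 to 54287088, plus strand), held 68657, 70481, 69182 and 66877 in control, 63031, 62967, 63384 and 70273 in BPS1, and 58723, 59648, 59537 and 58238 in BPS2. Every BPS2 library lay below the other 8, and BPS1 replicate 4 alone of the BPS1 libraries lay among the controls. The log2 fold change was −0.22 ± 0.05 in BPS2 (limma adjusted p = 0.0479, 0.858-fold) and −0.09 ± 0.05 in BPS1 (adjusted p = 0.335). The BPS2 call held in 6 of 23 alternatives, and of the 12 that left out 1 library it held only without BPS1 replicate 4 (adjusted p = 0.00230). Over the other 11 the log2 fold change kept its sign and the adjusted p was 0.0630 to 0.164. In BPS1 the sign turned under quantile scaling, to 0.06. The table has 76 rows of HNRNPA1 copies and pseudogenes, which summed to 1172 in control, 1002 in BPS1 and 984 in BPS2, beside 68799, 64914 and 59037 for the gene; how many of the gene's reads also match a copy was not tested.

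HNRNPUL1, a hnRNP U-like protein of the DNA damage response, came nearest the threshold in BPS1 (0.37 ± 0.11, limma adjusted p = 0.0506). It ranged from 7033 to 9693 in control, from 9384 to 12443 in BPS1 and from 8337 to 9421 in BPS2. BPS1 replicate 4 was the BPS1 library inside the control range, and without it the log2 fold change was 0.45 (adjusted p = 0.0106). It also passed without control replicate 4 (0.0451), and in 4 of 23 alternatives in all. HNRNPF, HNRNPH1 and HNRNPR, which regulate splicing, had log2 fold changes of 0.01, −0.16 and 0.09 in BPS1 and −0.08, 0.02 and 0.06 in BPS2, and none of them passed. HNRNPH1 has a close paralog, HNRNPH2, and how reads shared between them were divided is not given in the sources used here.

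RBM3 fell in BPS1 and was higher in BPS2 than in BPS1. RBM3 is a cold-inducible RNA-binding protein (ENSG00000102317, chromosome X, 48574449 to 48579066, plus strand). It held 10737, 10854, 10421 and 9551 in control, 8261.5, 8176, 8108 and 8145 in BPS1, and 10003, 10111, 10400 and 10050 in BPS2. BPS1 libraries lay close together (SD 65.55) and below the other 8, and BPS2 lay inside the control range. BPS1 gave a log2 fold change of −0.34 ± 0.05 (limma adjusted p = 0.00177, 0.787-fold), BPS2 one of −0.03 ± 0.05 (adjusted p = 0.872), and BPS2 against BPS1 one of 0.31 ± 0.05 (adjusted p = 0.00571). Both calls held in all 23 alternatives, with adjusted p up to 0.0225 and 0.0347.

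CIRBP, the other cold-inducible protein of the set, ranged from 4252 to 5079 in control, from 4025 to 5027 in BPS1 and from 3702 to 4394 in BPS2. It did not pass in either treated group (−0.15 ± 0.09, limma adjusted p = 0.342, and −0.22 ± 0.09, adjusted p = 0.357). RBM3 per 100 CIRBP was 217 ± 5.87 in control, against 191 ± 19.4 for BPS1 and 247 ± 16.1 for BPS2 (SD, n = 4). The 3 ranges did not overlap, at 211 to 225, 162 to 203 and 235 to 270.

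The other 5 genes of RNA recognition motif and SR-like proteins were not called. RBMX, a splicing factor also called hnRNP G, lay at 13708 to 14252 in BPS1 and 15126 to 16097 in control, without overlap (−0.16 ± 0.05, limma adjusted p = 0.0609). It passed in 4 of 23 alternatives, among them without BPS1 replicate 4 (adjusted p = 0.0252) and under quantile scaling (0.0313). RBM7, which guides the nuclear exosome to its targets, was above control without overlap in both groups, at 938 to 963 in BPS1 and 915 to 953 in BPS2 against 812 to 914 (0.13 ± 0.07 and 0.11 ± 0.07, adjusted p = 0.255 and 0.581). SRSF10, a splicing repressor, was 0.23 ± 0.09 higher in BPS1 on the log2 scale (adjusted p = 0.170). This gene passed in 3 of 23 alternatives, among them without BPS1 replicate 4 (0.31, adjusted p = 0.0269) and with GC correction (0.0269). RBM12 and RBM4B had log2 fold changes of −0.10 and −0.03 in BPS1 and −0.15 and −0.03 in BPS2. RBM12 shares its locus and strand with CPNE1, so reads from these genes may not be fully separated.

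BCL11A was the only one of the 9 members of mixed function that passed, and it differed most between the oligonucleotides. BCL11A is a zinc finger transcriptional repressor with a role in fetal globin silencing and neuronal development (ENSG00000119866, chromosome 2, 60450520 to 60555154, minus strand). It held 60.8, 61.5, 64.5 and 86.8 in control, 117, 104, 111 and 101 in BPS1, and 59.3, 36.7, 41.1 and 59.6 in BPS2. BPS1 lay above and BPS2 below control, with no overlap between any of the groups. BPS1 gave a log2 fold change of 0.67 ± 0.18 (limma adjusted p = 0.0354, 1.59-fold), BPS2 one of −0.48 ± 0.18 (adjusted p = 0.30), and BPS2 against BPS1 one of −1.16 ± 0.18 (adjusted p = 0.00279, 0.449-fold). The last held in all 23 alternatives (adjusted p up to 0.0126). The BPS1 call was lost without control replicate 1, 2 or 3 (0.0777, 0.0980 and 0.0873) and without BPS1 replicate 1, 2 or 3 (0.0812, 0.0694 and 0.0843). It also failed with a replicate block (0.0547), without the filter (0.0679) and without both libraries that stood apart (0.0630), so in 9 of 23 alternatives. At these levels BCL11A and ZC3H6 are the least abundant members.

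Per kilobase of mean transcript length the control level of BCL11A was 31.5 ± 5.67 and that of ZC3H6 18.2 ± 9.80 (SD, n = 4), which overlap within their spread. HNRNPA1 was the highest member by that measure, at 61200 ± 1330, and by the longest transcript, at 16700 ± 362. FIGN, a microtubule-severing ATPase, ranged from 497 to 1060 in control, from 730 to 1241 in BPS1 and from 596 to 910 in BPS2 (0.38 ± 0.23 and −0.14 ± 0.23, limma adjusted p = 0.358 and 0.869). ZC3H6, a zinc finger protein, ranged from 57.0 to 191 in control, with 95% intervals of −0.73 to 0.65 in BPS1 and −1.01 to 0.37 in BPS2. The remaining 6 (AHDC1, AKAP8L, ENOX1, FAM98A, SS18L1 and UBAP2L) lay between −0.05 and 0.21 in BPS1 and between −0.13 and 0.08 in BPS2. UBAP2L, a stress granule protein, lay below control without overlap in BPS2 (10958 to 11283 against 11524 to 11720; −0.06 ± 0.05, adjusted p = 0.665).

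**Figure D3:**
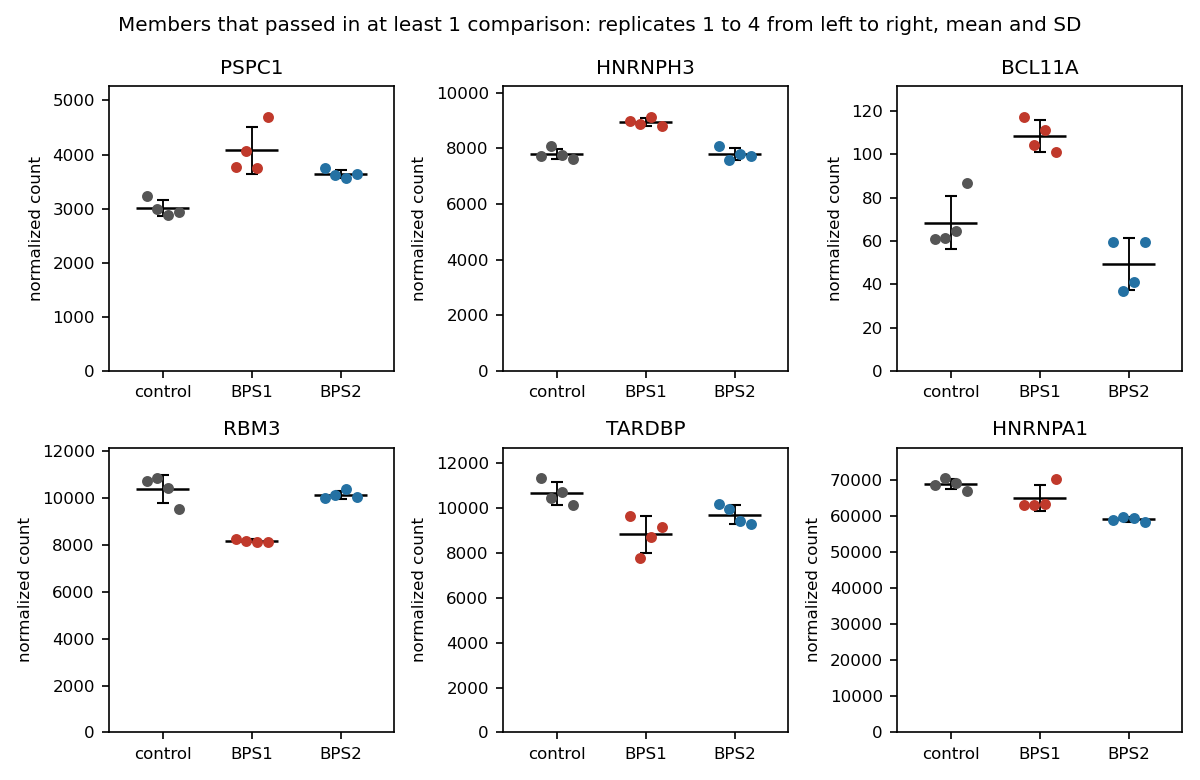
Normalized counts of the 6 members that passed in at least 1 contrast, in each library (replicates from left to right), with the mean and SD of each group (n = 4) and axes from 0. RBM3 in BPS1 (8108 to 8262) and HNRNPA1 in BPS2 (58238 to 59648) form narrow groups below control, and BCL11A is high in BPS1 (101 to 117) and low in BPS2 (36.7 to 59.6).

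Many members departed the same way in both libraries that stood apart over all genes. By the members alone, control replicate 1 did not stand apart. The SD of their deviation from the group's other libraries was 0.261 there and 0.260 in control replicate 4. The largest single departure was 0.907 in control replicate 1, 1.07 in control replicate 3 and 1.23 in control replicate 4. In BPS1 replicate 4 that SD was 0.286, against 0.135 to 0.155 in the other BPS1 libraries. Control replicate 1 and BPS1 replicate 4 were both more than 0.2 below the mean of their group's other libraries on the log2 scale for CPSF7, NUDT21, HNRNPUL1, RBM12, SRSF10 and FIGN, and both more than 0.2 above it for SMARCA4 and AKAP8L. ENOX1 (0.28 and −0.26) and ZC3H6 (−0.56 and 0.40) departed in opposite directions. The sign was shared by 25 of 35 members, and Spearman's rho between both sets of deviations was 0.607 over 35 genes, which are not independent. Over all genes tested, Pearson's correlation between the departures of these libraries from their group means was 0.424. The shared departure was therefore not particular to the members. With mean transcript GC content the rho was 0.348 in control replicate 1 and 0.261 in BPS1 replicate 4. BPS1 replicate 4 also moved NONO (0.27), PSPC1 (0.28) and SFPQ (0.23) upward, where control replicate 1 differed by −0.02, 0.14 and 0.11.

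**Figure D4:**
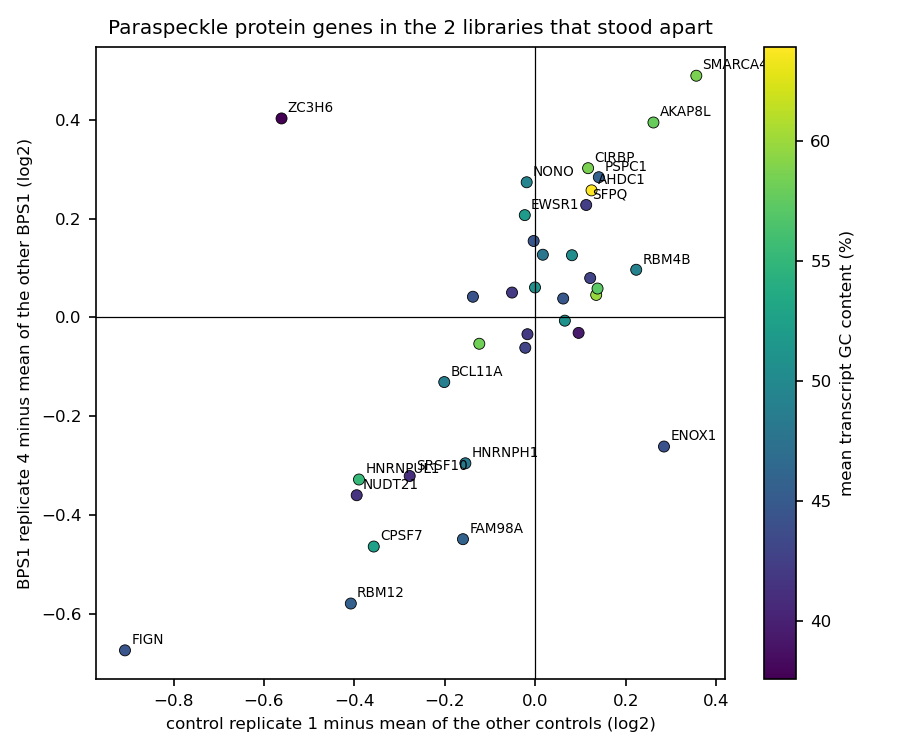
Deviation of control replicate 1 (horizontal) and BPS1 replicate 4 (vertical) from the mean of the other 3 libraries of their group, in log2 units, for the 35 genes, coloured by mean transcript GC content. Of these, 25 lie in the quadrants of equal sign. FIGN is lowest in both (−0.91 and −0.67) and SMARCA4 highest in both (0.36 and 0.49).

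Other genes of the same machines were read in the same fit, by lists drawn up with earlier results of these data known. MATR3, a nuclear matrix protein, rose in BPS1 from 20081 ± 609.7 to 24546 ± 1755 (SD, n = 4; 0.29 ± 0.06, adjusted p = 0.00776). The call was lost with only control and BPS1 in the fit (adjusted p = 0.0537) and under quantile scaling (0.0515).

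The counts that follow stand beside 8.6% of all genes called in BPS1 against control. Of 16 other hnRNPs (18.8% called), 2 rose in BPS1 (PCBP1, 0.39 ± 0.09, and HNRNPLL, 0.33 ± 0.09) and 1 fell (SYNCRIP, −0.49 ± 0.11; limma adjusted p = 0.0170, 0.0320 and 0.0140). Of 14 other factors of 3′ end processing (7.14% called), 1 rose in BPS1: CPSF3, the endonuclease that cuts the pre-mRNA (0.44 ± 0.10, adjusted p = 0.0152). Of 24 tested other SWI/SNF subunits (8.33% called), DPF1 rose (0.41 ± 0.11, adjusted p = 0.0397) and ACTL6B fell (−0.52 ± 0.14, adjusted p = 0.0373) in BPS1. Both are subunits of the neuronal form of the complex. SRSF2 was the 1 of 13 other SR proteins (7.69%) that fell in BPS1 (−0.37 ± 0.08, adjusted p = 0.0163). In BPS2 against BPS1, SYNCRIP was 0.50 ± 0.11 higher (adjusted p = 0.0207) and CPSF3 lower, at −0.40 ± 0.10 (adjusted p = 0.0394). None of these 4 lists had a called gene in BPS2 against control (limma; 0, 0, 1 and 1 by unadjusted p under 0.05). The 4 tested exosome partners of RBM7 had 0 calls in all 3 contrasts (limma; 1, 0 and 1 by unadjusted p under 0.05).

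Promoters are shown for PSPC1, RBM3, HNRNPH3 and TARDBP, the more abundant 4 of the 5 members that passed in BPS1, a choice made after their values were seen. RefSeq promoters on GRCh38.p14, from 250 bases before to 50 after each start, matched 31 of the 35 symbols (not SFPQ, TAF15, HNRNPA1 and AKAP8L). The 100 bases before the start are printed, and capitals mark matches, on either strand, to the GC box GGGCGG, to CCAAT, to the ETS core CCGGAA or to the E-box CACGTG. PSPC1 lies at chr13:19782946-19783045 on the minus strand, and RBM3 at chrX:48574384-48574483, HNRNPH3 at chr10:68331593-68331692 and TARDBP at chr1:11012554-11012653 on the plus strand. Each RefSeq start used lies downstream of the gene start given above. The HNRNPH3 and TARDBP stretches are therefore inside the annotated gene, and those of PSPC1 and RBM3 overlap it in part.
PSPC1 promoter: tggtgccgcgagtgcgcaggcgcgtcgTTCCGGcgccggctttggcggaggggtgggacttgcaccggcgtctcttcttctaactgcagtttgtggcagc
RBM3 promoter: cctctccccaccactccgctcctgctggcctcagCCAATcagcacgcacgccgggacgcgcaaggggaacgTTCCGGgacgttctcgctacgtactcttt
HNRNPH3 promoter: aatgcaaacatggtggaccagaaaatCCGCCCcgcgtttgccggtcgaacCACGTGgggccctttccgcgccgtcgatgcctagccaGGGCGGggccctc
TARDBP promoter: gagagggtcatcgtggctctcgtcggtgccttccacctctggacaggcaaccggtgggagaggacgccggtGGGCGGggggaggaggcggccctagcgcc

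PSPC1, which rose, and RBM3, which fell, both carry CCGGAA, here on the other strand as TTCCGG. Over the 300 bases, CCGGAA was in 35.5% of the 31 member promoters and 17.2% of all 35116 promoters in the table. GGGCGG was in 58.1% and 45.0%, CCAAT in 45.2% and 34.6%, CACGTG in 9.68% and 7.26%, and TATAAA in 3.23% and 11.5%. Each motif was searched on both strands, and a match describes the sequence only. Each member was represented by its first listed promoter, while the background took every listed promoter, with no limit to the genes tested. The shares therefore compare unlike sets and are not a result about the members.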

How the data were processed

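The values are signal, 1 normalized count for each gene in each library, as the authors deposited them. Tools named in the submitters' processing notes are Salmon 0.8.2, FastQC 0.11.7 and DESeq2, with the build GRCh38. The annotation release is not given in the sources used here. BPS2 columns follow the sample titles, because their description reads KPAS, and every BPS2 value rests on that match. BPS1 replicate 3 has a column spelled BSP1. Whole reads were not recovered for most genes with several transcripts, and each member has 2 to 54, so no count test was run and counting intervals were not given.

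Genes that reached 10 in 4 or more of the 12 libraries were tested on log2(value + 1) by limma 3.58.1 in R 4.3.3, with eBayes trend and no term but group. Fold changes on this scale understate those of low genes. The fit was tested on simulated data, where it missed most of the 1.25-fold changes placed there. A gene that did not pass may therefore still differ. GENCODE release 29 held 53365 of the 55771 identifiers and gave positions, transcript lengths and GC content. Replicates always differed by more than sampling noise (chi-square per gene 1.82 to 18.8 over 18 pairs).

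Alternatives were a pseudocount of 0.5 or 5, a minimum of 50 or none, scaling by median of ratios or quantiles, a replicate block, fits of only the groups compared, GC correction with and without the block, and omission of each library or of control replicate 1 with BPS1 replicate 4. Leaving out a library of a group not compared kept the fold change and could alter only the p-value. Such settings are counted in the totals above, so the alternatives were not equally demanding. The members, gene lists and alternatives were chosen with earlier results of these data known. The rule for named genes gave library values to NEAT1, the DBHS, assembly and CFIm genes, the members that passed, and the smallest p in each role group, and it named up to 4 passing genes of each other list. The results of 1 list, of further reported paraspeckle proteins, are not reported here in full.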

Additional observations from a re-analysis of the deposited data

Results flagged for a closer look

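In 105 groups of 4 values (35 genes in 3 groups), 13 had a highest or lowest library set apart from the others by Dixon's criterion, which is 12.4%, and chance flags about 1 in 20. The share over all genes is not given here, so the 12.4% is not a result about the members. BPS1 replicate 4 accounted for 8 of the 13. It was the highest BPS1 library for NONO (24421), SFPQ (25189), SMARCA4 (4032.3), HNRNPA1 (70273), CIRBP (5027) and AKAP8L (3518.5), and the lowest for HNRNPH1 (17817) and SRSF10 (7899.3). Control replicate 1 was the highest control for AKAP8L (3256.2) and ENOX1 (791.4). Control replicate 2 was the highest for NONO (24210) and HNRNPR (14215), and control replicate 4 for BCL11A (86.8).

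For 3 genes the effects of both oligonucleotides differed by the limma test of BPS2 against BPS1, which is the difference between both effects. That difference was −0.1984 for HNRNPH3 (adjusted p = 0.0412), 0.3112 for RBM3 (adjusted p = 0.00571) and −1.1557 for BCL11A (adjusted p = 0.00279) on the log2 scale. All 4 BPS2 libraries lay on the same side of all 4 BPS1 libraries in each case.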

How the results depend on the processing

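In the order BPS1 against control, BPS2 against control, then BPS2 against BPS1, called genes numbered 1760, 247 and 803 and called members 5, 1 and 3. With the replicate block these were 1067, 118 and 447 genes and 2, 0 and 2 members. Same-numbered libraries showed no clear pairing (12 correlations from −0.272 to 0.103, of which 1 was over 0.1). With 4 libraries per group, and control replicate 1 and BPS1 replicate 4 apart, this cannot exclude a pairing. The GC trend correction with replicate block gave 1314 genes and 3 members in BPS1, 124 genes and 0 members in BPS2, and 510 genes in BPS2 against BPS1. With only the groups compared, 907 genes and 3 members passed in BPS1 and 328 genes and 2 members in BPS2. Without a filter, 1267 genes and 2 members passed in BPS1 and 182 genes and 0 members in BPS2, of 44355 tested. In BPS2, 0 members passed with a pseudocount of 5 (237 genes), quantile scaling (269) or GC correction (328). In each BPS2 count of 0, 4 or 5 members had an unadjusted limma p under 0.05. So did 1874 to 2809 of all 20454 genes in those settings, and 3377 of 44355 without a filter. Omitting control replicate 1 and BPS1 replicate 4 together gave 2774, 1910 and 3499 genes and 10, 4 and 13 members. Leaving out 1 library gave 1102 to 2372, 114 to 536 and 477 to 1764 genes, and 2 to 11, 0 to 2 and 2 to 6 members, with the highest of each without BPS1 replicate 4. NEAT1 stayed between −1.88 and −1.63 in BPS1, −0.76 and −0.66 in BPS2 (lost in 7 of 12, where it lay between −0.72 and −0.66) and 0.93 and 1.18 in BPS2 against BPS1. The causes were not tested. No called value changed sign in any alternative. Read depth per gene is not known.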
